A study of Mus musculus with 15 samples.

Results

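The sterol and fatty acid synthesis programme that the SREBP transcription factors switch on was followed through 34 genes across 5 groups of mouse lung arrays. Membership was set by function: enzymes of sterol synthesis, genes that control SREBP or move sterol, and enzymes of fatty acid synthesis and desaturation. The list was chosen with earlier results of these data known, so its counts beside those of all genes describe it and do not test it. Of the 34 listed genes, 33 were measured among 18193 genes in all: 17 of sterol synthesis, 5 of SREBP control and sterol transport, and 11 of fatty acid synthesis. Acat2 was not analysed here. Each gene was read by 1 probe set, a group of short probes against 1 transcript: among those that name exactly 1 symbol, the one with the highest mean log2(intensity + 16) over the 15 arrays.

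SREBP proteins are made as precursors in the membrane of the endoplasmic reticulum. When sterol is scarce, Scap carries them to the Golgi, where proteases free a fragment that enters the nucleus. When sterol is plentiful, Insig proteins hold Scap and its cargo back. The product of Srebf2 acts mainly on sterol genes and that of Srebf1 mainly on fatty acid genes, and in the lung alveolar type 2 cells use this programme to make the phospholipids and cholesterol of surfactant.

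The promoters of 4 members are shown because they carry, or lack, the letters by which such genes are often recognised. RefSeq promoter windows, from 250 bases before to 50 bases after a start site on GRCm38.p6, were matched for 27 of the 34 listed genes. They were searched on both strands for TCACNCCAC, a sterol regulatory element type of motif, and for CCAAT, the box of the factor NF-Y. Each is written 5′ to 3′ along the gene's own strand, and capitals mark every match, ATTGG being CCAAT read on the opposite strand. The windows are Hmgcs1 at chr13:119690101-119690400 on the plus strand, Idi1 at chr13:8885356-8885655 on the plus strand, Cyp51 at chr5:4104648-4104947 on the minus strand and Fasn at chr11:120824498-120824797 on the minus strand.
Hmgcs1: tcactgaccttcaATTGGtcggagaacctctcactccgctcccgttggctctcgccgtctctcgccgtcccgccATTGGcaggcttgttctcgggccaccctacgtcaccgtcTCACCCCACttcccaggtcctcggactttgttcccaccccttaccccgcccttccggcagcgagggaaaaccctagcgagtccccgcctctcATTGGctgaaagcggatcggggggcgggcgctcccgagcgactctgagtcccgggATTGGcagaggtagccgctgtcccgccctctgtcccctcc
Idi1: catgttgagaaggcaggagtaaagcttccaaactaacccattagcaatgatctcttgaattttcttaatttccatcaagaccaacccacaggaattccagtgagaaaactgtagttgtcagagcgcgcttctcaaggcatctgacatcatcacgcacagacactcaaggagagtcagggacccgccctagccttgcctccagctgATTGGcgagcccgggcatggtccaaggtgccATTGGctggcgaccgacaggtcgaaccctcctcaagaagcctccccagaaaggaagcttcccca
Cyp51: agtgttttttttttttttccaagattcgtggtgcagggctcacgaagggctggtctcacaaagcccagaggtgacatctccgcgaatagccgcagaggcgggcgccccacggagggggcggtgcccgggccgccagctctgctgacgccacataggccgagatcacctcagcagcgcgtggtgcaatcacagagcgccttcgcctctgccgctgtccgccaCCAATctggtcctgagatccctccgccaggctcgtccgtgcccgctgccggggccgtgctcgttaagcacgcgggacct
Fasn: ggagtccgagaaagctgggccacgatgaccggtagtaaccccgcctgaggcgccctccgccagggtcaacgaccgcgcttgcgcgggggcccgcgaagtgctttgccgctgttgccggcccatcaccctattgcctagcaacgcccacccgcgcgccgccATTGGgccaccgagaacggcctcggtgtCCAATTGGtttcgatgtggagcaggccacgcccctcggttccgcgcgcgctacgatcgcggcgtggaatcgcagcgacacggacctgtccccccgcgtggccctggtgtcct
Hmgcs1 was the 1 member whose window held the sterol regulatory element type of motif, read as TCACCCCAC at -137 from the start site. That is 3.7% of the 27 matched members, against 1.44% of 27025 genes with a window. A CCAAT box lay in the windows of 22 of the 27 members (81.5%), against 41.1% of all genes. A match describes letters in a window and is not a binding site, and the arrays measured no binding. Only this 1 strict pattern of 9 letters was searched for the sterol element. A window without a match may therefore hold such an element in other letters.

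All mice were of mixed background and, per the labels, untreated. The 7-month groups were lungs of double mutant mice (Smad4d/d together with the mutation at a further locus), of single mutant mice (the mutation at that further locus alone) and of wild type mice. The 12-month groups were lung tumours of the double mutant genotype and lungs of wild type mice. Each group held 3 arrays. A lung array holds part of a whole lung and a tumour array part of 1 tumour. The series set out to find genes changed in the tumours and, at 7 months, genes changed before tumours began. What drove the deletions, and in which cells, is not stated by the labels. Animal numbers stand on the labels of the 12-month arrays except for 1 tumour, and the 7-month labels give only replicate numbers. The p-values therefore measure the spread between these samples, which may be technical in part.

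Smad4 did not check the genotype: it read 3688, 2965 and 3255 on the tumour arrays, against 2870, 2924 and 2664 on the 12-month wild type arrays (adjusted p = 0.213 in limma), and it was not called in the double mutant lungs at 7 months (adjusted p = 0.799). Array medians lay between 90.9 and 99.5, and arrays of 1 group correlated at 0.982 to 0.996 over genes. The groups were not matched for sex. Xist, which marks an inactivated X chromosome, was low in all tumours and in wild type array 2 at 12 months and high in wild type arrays 1 and 3. Xist and the Y-linked gene Eif2s3y were present together on the 7-month arrays, apart from wild type array 3, which had Xist at 48.1. Pooling of animals at 7 months is neither stated nor denied by the labels. If animals were pooled, n counts pools and the spread between arrays is not that between animals. Control probe sets for 18S ribosomal RNA averaged 1943, 2036 and 1121 on the tumour arrays, against 6718, 6933 and 5492 on the 12-month wild type arrays. Their part in the tumour results was not tested.

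In the 7-month mutant lungs genes of the programme rose and none fell. A member was called at an adjusted p under 0.05 in limma, with Benjamini-Hochberg adjustment over all genes. Of the 33 members, 11 rose and 0 fell in the double mutant lungs, where 6.42% of all genes rose and 1.39% fell. In the single mutant lungs 18 rose and 0 fell, where 9.79% of all genes rose and 5.4% fell. The median log2 fold change over the members was 0.27 in the double mutant and 0.36 in the single mutant, against 0.01 and 0.02 over all genes. Both comparisons use the same 3 wild type arrays, so a shift in those arrays moves both. Without regard to the test, all 3 mutant arrays lay above all 3 wild type arrays for 20 members in the double mutant (15.2% of all genes) and for 24 in the single mutant (20% of all genes). Wild type array 1 was the lowest of its group for 21 of the 33 members, an order not counted over all genes. Without it 8 members rose in the double mutant and 15 in the single mutant. The lowest counts were 7 in the double mutant without double mutant array 2 and 10 in the single mutant without single mutant array 2. Leaving out 1 array moved the counts over all genes too. They ran from 792 to 1037 higher in the double mutant (1168 with all arrays) and 1192 to 1827 in the single mutant (1782). At an unadjusted p under 0.05, in either direction, there were 20 members in the double mutant (60.6%, against 23.3% of all genes) and 27 in the single mutant (81.8%, against 29.1% of all genes).

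**Figure D1:**
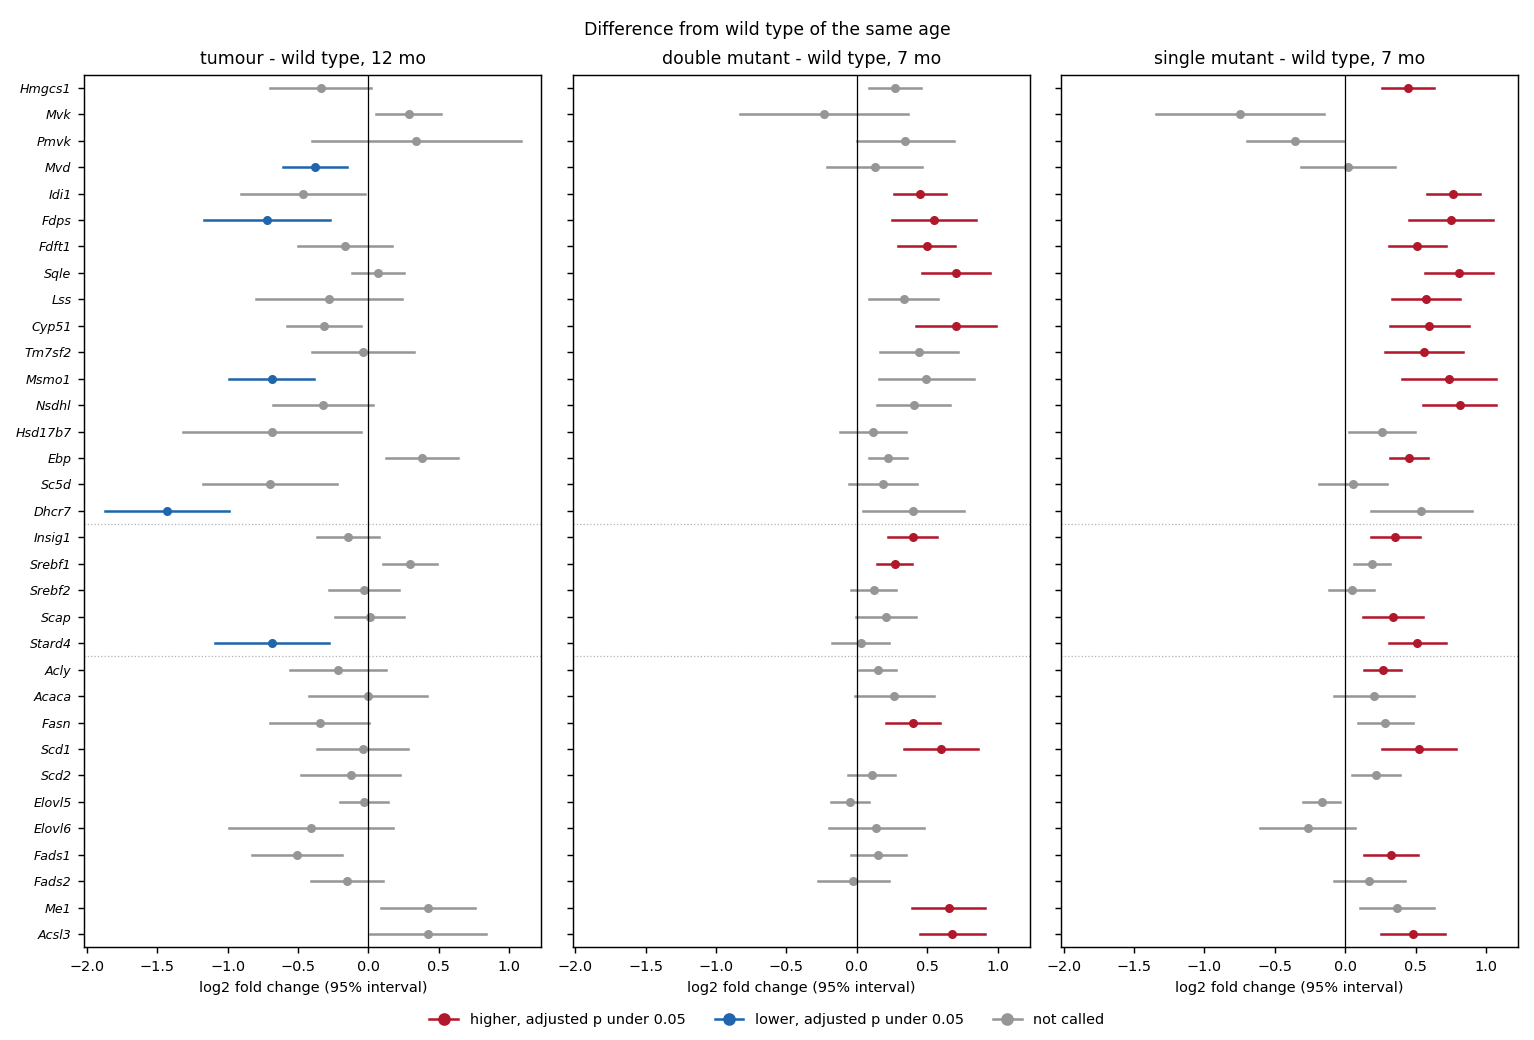
Log2 fold change of each of the 33 members against wild type of the same age, with its 95% interval from limma, for tumours at 12 months and for double and single mutant lungs at 7 months. Coloured genes passed an adjusted p of 0.05, and dotted lines separate sterol synthesis, SREBP control and fatty acid synthesis. In the 7-month panels 11 and 18 members rose and none fell, and in the tumour panel 5 fell and none rose.

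Sterol synthesis supplied 5 of the 11 rises in the double mutant lungs and 11 of the 18 in the single mutant lungs. The median log2 fold change of its 17 measured genes was 0.40 in the double mutant and 0.54 in the single mutant. Sqle, squalene epoxidase, makes the first oxygen-dependent step towards sterols. It read 1142, 1181 and 1101 in the double mutant and 1151, 1269.9 and 1261 in the single mutant, against 603, 819 and 678 in wild type lung. Every mutant array stood well above every wild type array (double mutant 1.63-fold higher, log2 fold change 0.70 ± 0.11 SE, adjusted p = 0.00451, and single mutant 1.75-fold higher, log2 fold change 0.81 ± 0.11 SE, adjusted p = 0.00167). Cyp51 removes a methyl group from lanosterol. It read 839.6, 853 and 795 in the double mutant and 747, 788 and 768 in the single mutant, against 399, 564 and 561 in wild type lung. No mutant array overlapped wild type, and the rise was 1.63-fold in the double mutant (log2 0.71 ± 0.12 SE, adjusted p = 0.00993) and 1.51-fold in the single mutant (log2 0.60 ± 0.12 SE, adjusted p = 0.0137). Without single mutant array 2 the single mutant call of Cyp51 ended (adjusted p = 0.0513).

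The enzymes between mevalonate and squalene split into those that rose and those that did not. Idi1 isomerises isopentenyl diphosphate, Fdps joins isoprene units into farnesyl diphosphate, and Fdft1 joins farnesyl units into squalene. Idi1 read 1532, 1607 and 1434 in the double mutant and 1826, 2051 and 1839.5 in the single mutant, against 1111, 1035 and 1192 in wild type lung. Its single mutant rise had the smallest adjusted p of any member (1.7-fold higher, log2 fold change 0.77 ± 0.08 SE, adjusted p = 0.000597), and it also rose in the double mutant (1.37-fold, adjusted p = 0.0116). Fdps read 1116, 1239 and 1083 in the double mutant and 1148, 1456 and 1369 in the single mutant, against 696, 934 and 720.2 in wild type lung. Neither mutant overlapped wild type (log2 fold change 0.55 ± 0.13 SE in the double mutant, adjusted p = 0.0394, and 0.75 ± 0.13 SE in the single mutant, adjusted p = 0.0063). Fdft1 read 932, 923 and 925 in the double mutant and 965, 965 and 885 in the single mutant, against 569.8, 686 and 710.1 in wild type lung. It too separated fully, 1.41-fold higher in the double mutant (adjusted p = 0.0106) and 1.43-fold higher in the single mutant (adjusted p = 0.00585). Hmgcs1 makes the precursor of mevalonate. It read 2785, 2858 and 2874 in the double mutant and 3230.4, 3299 and 3096 in the single mutant, against 2082, 2531 and 2466 in wild type lung. It passed in the single mutant (1.36-fold higher, log2 fold change 0.45 ± 0.08 SE, adjusted p = 0.00783) and not in the double mutant (log2 fold change 0.27 ± 0.08 SE, adjusted p = 0.0867), though all 6 mutant arrays lay above wild type. The double mutant call of Fdps ended without wild type array 1 or 3, single mutant array 2 or 3, or any 1 double mutant array (adjusted p up to 0.117), and the double mutant calls of Fdps, Idi1 and Fdft1 ended when all probe sets of a gene were averaged (adjusted p = 0.12, 0.0674 and 0.0597). Over every setting tried their adjusted p ran from 0.0123 to 0.12 for Fdps, 0.00198 to 0.088 for Idi1 and 0.0023 to 0.0597 for Fdft1. Averaging took in very dim probe sets, with mean intensities of 3.45 for the other of Fdps and 16.2 and 23.4 for Fdft1. A further Fdft1 probe set with a mean of 632 was called in the double mutant (log2 0.55, adjusted p = 0.0471 in limma over all probe sets).

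The kinases and the decarboxylase of the mevalonate branch passed in neither mutant. Mvk, mevalonate kinase, read 83.4, 85.3 and 85.8 in the double mutant and 71.4, 43.4 and 51.7 in the single mutant, against 104, 62.6 and 160.0 in wild type lung. Its wild type arrays spread more widely than the mutant arrays, and the log2 fold change was -0.23 ± 0.26 SE in the double mutant (adjusted p = 0.658) and -0.75 ± 0.26 SE in the single mutant (adjusted p = 0.0943). Pmvk, the next kinase, read 1126, 1228 and 1137 in the double mutant and 655, 677 and 804 in the single mutant, against 934, 722 and 1125 in wild type lung. The double mutant arrays lay narrowly above all wild type arrays (adjusted p = 0.214) and the single mutant arrays overlapped them (adjusted p = 0.158). Mvd, the decarboxylase that follows, overlapped wild type in both, with a log2 fold change of 0.13 ± 0.15 SE in the double mutant (adjusted p = 0.668) and 0.02 ± 0.15 SE in the single mutant (adjusted p = 0.952).

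Downstream of squalene, 5 further enzymes passed in the single mutant. Nsdhl, a sterol dehydrogenase of the demethylation complex, read 608, 690.4 and 563 in the double mutant and 761, 945 and 784 in the single mutant, against 435, 517 and 442 in wild type lung. Both mutants lay above wild type, with the test passed in the single mutant (1.76-fold higher, log2 fold change 0.81 ± 0.11 SE, adjusted p = 0.00221) and missed in the double mutant (log2 fold change 0.40 ± 0.11 SE, adjusted p = 0.0711). Msmo1, the methyl oxidase of the same complex, read 846, 1085 and 1108 in the double mutant and 1147, 1230.5 and 1199 in the single mutant, against 798, 787 and 569 in wild type lung. Neither mutant overlapped wild type, and the single mutant passed (1.67-fold higher, adjusted p = 0.0116) while the double mutant did not (adjusted p = 0.0824). Lss, which closes squalene epoxide into lanosterol, read 279, 335 and 286 in the double mutant and 320.3, 397 and 356 in the single mutant, against 221, 224 and 260.4 in wild type lung. Both mutants lay above wild type, and the test was passed in the single mutant (1.49-fold higher, adjusted p = 0.00835) and not in the double mutant (adjusted p = 0.102). Ebp, a sterol isomerase, read 830.4, 888 and 833 in the double mutant and 989, 1018 and 991 in the single mutant, against 724, 750.1 and 702 in wild type lung. Its arrays lay close together within each group and the 3 groups did not overlap. The single mutant passed (1.37-fold higher, adjusted p = 0.00156) and the double mutant just missed (adjusted p = 0.0559).

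Tm7sf2, a sterol reductase, rose in the single mutant by 0.56 ± 0.12 SE on the log2 scale (adjusted p = 0.0168), and this call ended without wild type array 1 or 3 or single mutant array 2 or 3 (adjusted p up to 0.058). In the double mutant Tm7sf2 did not pass (log2 fold change 0.44 ± 0.12 SE, adjusted p = 0.0671). Hsd17b7, a ketone reductase of the demethylation complex, and Sc5d, a desaturase near the end of the path, passed in neither mutant. Their log2 fold changes were 0.11 and 0.19 in the double mutant and 0.26 and 0.06 in the single mutant. Dhcr7, which completes cholesterol from its last precursor, read 227, 240.0 and 206 in the double mutant and 254, 242 and 249 in the single mutant, against 124, 213 and 172 in wild type lung. The single mutant arrays all lay above wild type, but neither the double mutant (adjusted p = 0.167) nor the single mutant (adjusted p = 0.0507) passed.

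**Figure D2:**
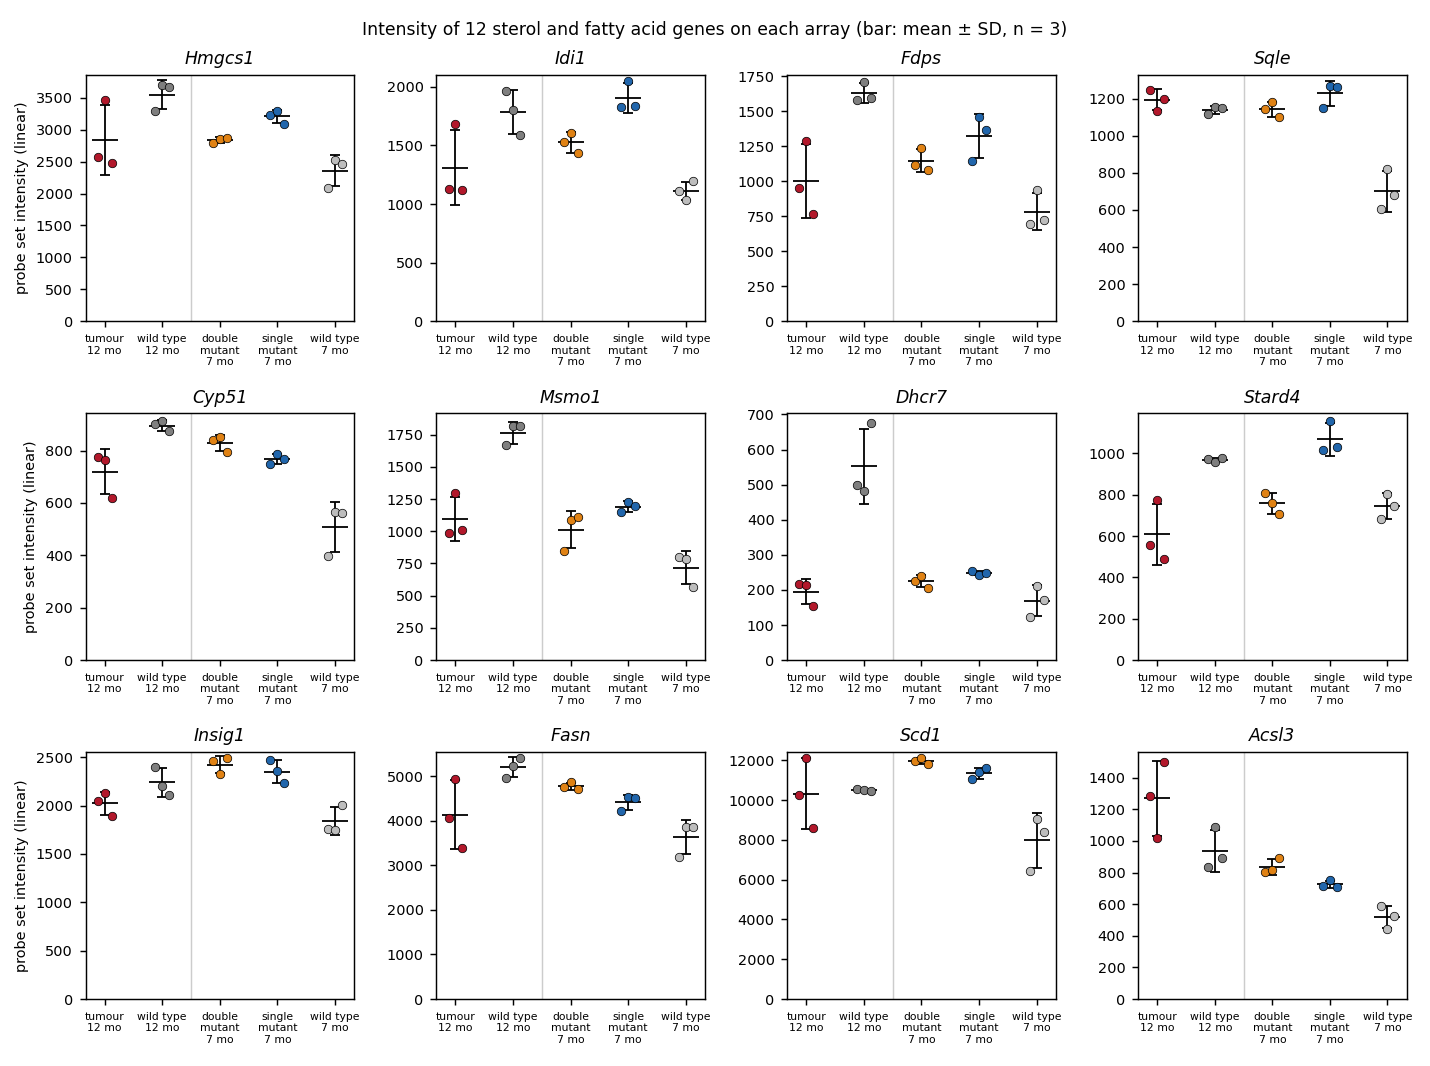
Probe set intensity on a linear scale for 12 members on all 15 arrays, with tumour and wild type lung at 12 months left of the grey line and double mutant, single mutant and wild type lung at 7 months right of it. Points are arrays and bars are the mean ± SD (n = 3). Sqle arrays of both 7-month mutants sit between 1101 and 1269.9, above 7-month wild type, while Dhcr7 is highest in 12-month wild type lung.

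Of the 5 genes that steer the programme or move sterol, 2 rose in the double mutant and 3 in the single mutant. Insig1, the retention protein and itself an SREBP target, read 2456, 2322 and 2488 in the double mutant and 2471, 2352 and 2234 in the single mutant, against 1756, 1751 and 2005 in wild type lung. All mutant arrays were higher than all wild type arrays (1.32-fold in the double mutant, adjusted p = 0.0149, and 1.28-fold in the single mutant, adjusted p = 0.0156). Srebf1 read 1591, 1576 and 1527 in the double mutant and 1483, 1503 and 1450.3 in the single mutant, against 1288, 1275 and 1321 in wild type lung. The step was small but the arrays of each group lay close together, and the double mutant passed (1.21-fold higher, log2 fold change 0.27 ± 0.05 SE, adjusted p = 0.0194) while the single mutant stood at the threshold (adjusted p = 0.0501). Srebf2 passed in neither, at 786 ± 6.51 in the double mutant and 747 ± 20.9 in the single mutant, against 724 ± 57.5 in wild type lung (SD, n = 3). Its adjusted p was 0.359 in the double mutant and 0.738 in the single mutant. Scap, the escort protein, read 1479, 1524 and 1309 in the double mutant and 1500.4, 1638 and 1581 in the single mutant, against 1131, 1384 and 1215 in wild type lung. Its single mutant arrays all lay above wild type (1.26-fold, adjusted p = 0.0419), and its double mutant arrays overlapped it (adjusted p = 0.222).

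Stard4, which carries cholesterol between membranes, was called in the single mutant and not in the double mutant. It read 809.8, 761 and 708 in the double mutant and 1017, 1158 and 1029 in the single mutant, against 684, 806 and 747 in wild type lung. The double mutant arrays lay among wild type (log2 fold change 0.03 ± 0.09 SE, adjusted p = 0.896) and the single mutant arrays above all others (1.42-fold higher, log2 fold change 0.51 ± 0.09 SE, adjusted p = 0.00604). In a fit over all probe sets its 2 other probe sets, which were dimmer, also rose in the single mutant (log2 fold change 0.67 and 0.595, adjusted p = 0.0044 and 0.00513). The calls of Insig1, Srebf1 and Scap each ended when 1 of several arrays was left out, while their estimates stayed positive. The log2 estimate ran from 0.258 to 0.287 for Srebf1 in the double mutant. For Scap it ran from 0.274 to 0.418 in the single mutant. For Insig1 it ran from 0.365 to 0.462 in the double mutant and 0.32 to 0.42 in the single mutant. Each such fit also holds fewer arrays, so a lost call does not show that 1 array made it. Insig1 lost its double mutant call without wild type array 1 or double mutant array 1 and its single mutant call without single mutant array 1 or 2 (adjusted p up to 0.052 and 0.0678). Srebf1 lost its call without wild type array 1 or double mutant array 1 or 2 (adjusted p up to 0.064), and under median centring of the arrays (adjusted p = 0.0835, with 0.00418 to 0.0867 over all settings). Scap lost its call without wild type array 1 or 3, any 1 single mutant array, or double mutant array 1 or 2 (adjusted p up to 0.13), and on averaging all probe sets (adjusted p = 0.32, with 0.0151 to 0.32 over all settings).

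Of the 11 fatty acid genes, 4 rose in the double mutant lungs and 4 in the single mutant lungs. Fasn, fatty acid synthase, read 4751, 4869.9 and 4721 in the double mutant and 4226, 4530.3 and 4507 in the single mutant, against 3187, 3855 and 3870.3 in wild type lung. Both mutants separated from wild type, and the double mutant passed (1.32-fold higher, log2 fold change 0.40 ± 0.08 SE, adjusted p = 0.0243) while the single mutant did not (log2 fold change 0.29 ± 0.08 SE, adjusted p = 0.0556). Scd1, the desaturase that makes monounsaturated fatty acids, read 11984, 12117 and 11808 in the double mutant and 11051, 11438 and 11595 in the single mutant, against 6442, 9069.8 and 8408 in wild type lung. Mutant arrays were all higher (1.52-fold in the double mutant, adjusted p = 0.0155, and 1.44-fold in the single mutant, adjusted p = 0.0177). This probe set is bright, in files whose highest value is 17030, and another Scd1 probe set with a mean of 1280 gave larger fold changes: log2 1.33 in the double mutant (adjusted p = 0.00626) and 1.64 in the single mutant (adjusted p = 0.00145).

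Me1, the cytosolic malic enzyme that supplies NADPH, and Acsl3, which activates long-chain fatty acids, rose in the double mutant. Me1 read 2699, 2778 and 2947 in the double mutant and 2215, 2375 and 2309 in the single mutant, against 1572, 1657 and 2162 in wild type lung. The arrays of both mutants lay above wild type, and the double mutant passed (1.57-fold higher, log2 fold change 0.65 ± 0.11 SE, adjusted p = 0.00981) while the single mutant did not (adjusted p = 0.065). Acsl3 read 801, 815 and 893 in the double mutant and 716, 752 and 711 in the single mutant, against 587, 444 and 526 in wild type lung. No mutant array overlapped wild type, and Acsl3 passed in the double mutant (1.6-fold higher, adjusted p = 0.00383) and in the single mutant (1.4-fold higher, adjusted p = 0.014). Acly, which splits citrate into acetyl-CoA, and Fads1, a desaturase of polyunsaturated fatty acids, rose in the single mutant (log2 fold change 0.27 ± 0.06 SE and 0.33 ± 0.09 SE, adjusted p = 0.0163 and 0.0358). In the double mutant Acly and Fads1 did not pass (log2 fold change 0.15 ± 0.06 SE and 0.15 ± 0.09 SE, adjusted p = 0.167 and 0.332).

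The other 5 fatty acid genes passed in neither mutant. Acaca, the carboxylase that makes malonyl-CoA, had a log2 fold change of 0.27 ± 0.12 SE in the double mutant and 0.20 ± 0.12 SE in the single mutant. Scd2, another desaturase, had 0.11 ± 0.07 SE in the double mutant and 0.22 ± 0.07 SE in the single mutant. Fads2, a desaturase that acts before Fads1, had -0.03 ± 0.11 SE in the double mutant and 0.17 ± 0.11 SE in the single mutant. Elovl6, which lengthens palmitate, had 0.14 ± 0.15 SE in the double mutant and -0.27 ± 0.15 SE in the single mutant. Elovl5, which lengthens polyunsaturated fatty acids, ran slightly below wild type on every mutant array, at -0.05 ± 0.06 SE in the double mutant (adjusted p = 0.686) and -0.17 ± 0.06 SE in the single mutant (adjusted p = 0.0932). Several calls in the fatty acid group also ended when single arrays were left out, though every estimate of those calls stayed positive. Fasn lost its double mutant call without any 1 double mutant array (adjusted p up to 0.0797). Scd1 lost its double mutant call without double mutant array 2 (adjusted p = 0.0562). The single mutant call of Scd1 ended without any 1 single mutant array (up to 0.0624). Acsl3 lost its single mutant call without single mutant array 2 (adjusted p = 0.0548), Acly without single mutant array 2 or 3 (up to 0.0667), and Fads1 without wild type array 1 or 2, any 1 single mutant array or double mutant array 1 (up to 0.115). Averaging all probe sets also ended the single mutant calls of Acsl3 (adjusted p = 0.0724, with 0.00414 to 0.0724 over all settings) and Fads1 (adjusted p = 0.195, with 0.0125 to 0.195 over all settings), and median centring that of Acly (adjusted p = 0.0686, with 0.00207 to 0.117 over all settings). The averages took in dimmer probe sets, with mean intensities down to 61.2 for Acsl3 and 129 for Fads1.

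A pass in 1 mutant and not in the other, as for Hmgcs1 or Me1, does not show that the genotypes differ, and a pass in both draws on the same wild type arrays. Tested directly, double against single mutant, 1 member of 33 passed: Stard4 was lower in the double mutant (1.4-fold lower, log2 fold change -0.48 ± 0.09 SE, adjusted p = 0.0373), where 0.841% of all genes were lower. None was higher, where 0.918% of all genes were higher. At an unadjusted p under 0.05 there were 7 members in either direction (21.2%), which is near the 17.9% of all genes. Without regard to the test, more members separated fully. All double mutant arrays lay above all single mutant arrays for 11 members (14.4% of all genes) and below them for 11 (14.2% of all genes). Sterol genes ran 3 above and 7 below, and fatty acid genes 6 above and 3 below. The interval of the difference was -0.35 to 0.14 for Sqle, -0.17 to 0.39 for Cyp51 and -0.22 to 0.18 for Fdft1 on the log2 scale, and -0.50 to -0.13 for Idi1, whose double mutant arrays all lay below the single mutant (adjusted p = 0.0995). Pmvk had the widest gap upward (log2 fold change 0.70 ± 0.15 SE, adjusted p = 0.0632), with all double mutant arrays above all single mutant arrays. The Stard4 difference lost its call without wild type array 3 or any 1 single or double mutant array (adjusted p up to 0.127). Of its 2 other probe sets, 1 passed for this difference (log2 -0.57, adjusted p = 0.0374) and 1 did not (log2 -0.34, adjusted p = 0.13).

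In the tumours no member rose. Against wild type lung at 12 months, 0 of the 33 members rose and 5 fell, where 9.23% of all genes rose and 6.02% fell. At an unadjusted p under 0.05 there were 15 members in either direction (45.5%, against 30.8% of all genes). The median log2 fold change of the members was -0.16, against 0.01 over all genes, and -0.32 for the 17 sterol genes. All 3 tumours lay below all 3 wild type lungs for 9 members (17% of all genes) and above them for 4 (20.5% of all genes). The tumours differed from each other, with tumour 2 highest for 24 members and tumour 3 lowest for 23. This order was not counted over all genes. Without tumour 2 there were 10 members lower and 1 higher, and without any other 1 of the 6 arrays there was 1 lower. Over all genes, 1426 were lower without tumour 2 and 220 without 12-month wild type array 3, against 1095 with all 6 arrays. Against wild type array 2 alone, the 1 without high Xist, 1 member was lower and 1 higher, and a common fit of all 15 arrays called 11 lower and 4 higher.

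Dhcr7 fell furthest of the 5. It read 217, 214 and 154 in the tumours, against 499.9, 481 and 675 in wild type lung at 12 months. The lowest wild type array was more than 2 times the highest tumour (2.69-fold lower, log2 fold change -1.43 ± 0.18 SE, adjusted p = 0.0092), and the call held without any 1 array. Fdps read 953, 1287 and 767 in the tumours, against 1578, 1709 and 1597 in wild type lung. The tumours were spread widely but all lower (1.65-fold lower, log2 fold change -0.72 ± 0.19 SE, adjusted p = 0.0491). Msmo1 read 989, 1293 and 1009.6 in the tumours, against 1667, 1815 and 1814 in wild type lung, with no overlap (1.61-fold lower, adjusted p = 0.0191). Stard4 read 559, 774 and 491 in the tumours, against 970.5, 960.2 and 979.9 in wild type lung, where the 3 wild type values were nearly equal (1.61-fold lower, adjusted p = 0.0424). Mvd read 181, 192 and 191 in the tumours, against 228, 246 and 276 in wild type lung, also without overlap (1.3-fold lower, adjusted p = 0.0446). The 4 calls other than that of Dhcr7 ended when single arrays were left out, though their estimates stayed negative. Those of Fdps, Msmo1 and Stard4 ended without any 1 wild type array or without tumour 1 or 3 (adjusted p up to 0.139, 0.0722 and 0.121), and that of Mvd ended without any 1 of the 6 (up to 0.12). Averaging all probe sets ended those of Fdps (adjusted p = 0.101, with 0.00562 to 0.139 over all settings) and Msmo1 (adjusted p = 0.0799, with 0.00319 to 0.0799 over all settings), and a pseudocount of 1 those of Mvd (adjusted p = 0.0574, with 0.0221 to 0.275 over all settings) and Stard4 (adjusted p = 0.0618, with 0.00194 to 0.121 over all settings). The other Fdps probe set in that average had a mean intensity of 3.45.

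Several members ran the other way or stood level in the tumours. Srebf1 read 1683, 1840.5 and 1786 in the tumours, against 1399, 1421 and 1496 in wild type lung, with every tumour higher and the test just missed (log2 fold change 0.30 ± 0.08 SE, adjusted p = 0.0541). Ebp read 1268, 1127 and 1431 in the tumours, against 948, 972 and 989 in wild type lung, again all higher (adjusted p = 0.0591). Both passed in a common fit of all 15 arrays, Srebf1 with adjusted p = 0.0022 and Ebp with adjusted p = 0.00289. Me1 and Mvk also lay above wild type on every tumour array (log2 fold change 0.42 ± 0.14 SE and 0.29 ± 0.10 SE, adjusted p = 0.0907 and 0.0989). Sqle, among the clearest rises at 7 months, read 1247, 1135 and 1199 in the tumours, against 1115, 1153 and 1149.5 in wild type lung, and overlapped (log2 fold change 0.07 ± 0.08 SE, interval -0.12 to 0.25).

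The remaining members did not pass in the tumours. Sc5d and Fads1 were lower on every tumour array than on every wild type array (log2 fold change -0.70 ± 0.20 SE and -0.51 ± 0.13 SE, adjusted p = 0.0641 and 0.0502), as were Cyp51 (-0.32 ± 0.11 SE, adjusted p = 0.104) and Fasn (-0.35 ± 0.15 SE, adjusted p = 0.169). Hsd17b7, Idi1 and Hmgcs1 had negative estimates with overlapping arrays (log2 fold change -0.68 ± 0.26 SE, -0.46 ± 0.18 SE and -0.34 ± 0.15 SE), and so had Nsdhl (-0.32 ± 0.15 SE) and Lss (-0.28 ± 0.21 SE). Tm7sf2, Fdft1 and Insig1 lay closer to wild type (-0.04, -0.16 and -0.15), as did Srebf2 (-0.03) and Scap (0.01). Among fatty acid genes Acly, Acaca, Scd1, Scd2, Elovl5, Elovl6 and Fads2 ranged from -0.41 for Elovl6 to near 0 for Acaca on the log2 scale. Pmvk and Acsl3 had positive estimates with overlapping arrays (0.34 ± 0.31 SE and 0.42 ± 0.17 SE).

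The effect in the tumours was then set against the effect in the 7-month mutants, each relative to wild type of its own age, in 1 model of 15 arrays. Against the double mutant effect, the tumour effect was lower for 10 members and higher for 0, where 1.41% of all genes were lower and 1.75% higher. Against the single mutant effect it was lower for 17 members and higher for 0, where 5.49% of all genes were lower and 6.08% higher. The tumours were of the double mutant genotype, so this contrast differs in genotype as well as in age and tissue sampled. Dhcr7 had the largest difference in both (-1.83 ± 0.25 SE, adjusted p = 0.00381, against the double mutant and -1.97 ± 0.25 SE, adjusted p = 0.000786, against the single mutant, on the log2 scale). Fdps followed (-1.27 ± 0.23 SE and -1.47 ± 0.23 SE), then Msmo1 (-1.18 ± 0.20 SE and -1.42 ± 0.20 SE). Fdps, Cyp51, Msmo1 and Dhcr7 kept the double mutant difference without any 1 array, and 12 of the 17 kept the single mutant difference. The count against the double mutant was 4 without tumour 3 or without double mutant array 1, 5 without double mutant array 2 or 7-month wild type array 1, 6 without 12-month wild type array 1 or 3 or 7-month wild type array 3, and 18 without tumour 2. The count over all genes moved as well. There were 257 genes lower with all arrays, 108 without double mutant array 1 and 973 without tumour 2. Srebf1 and Ebp showed no such gap, with intervals of -0.15 to 0.20 and -0.08 to 0.40 against the double mutant.

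**Figure D3:**
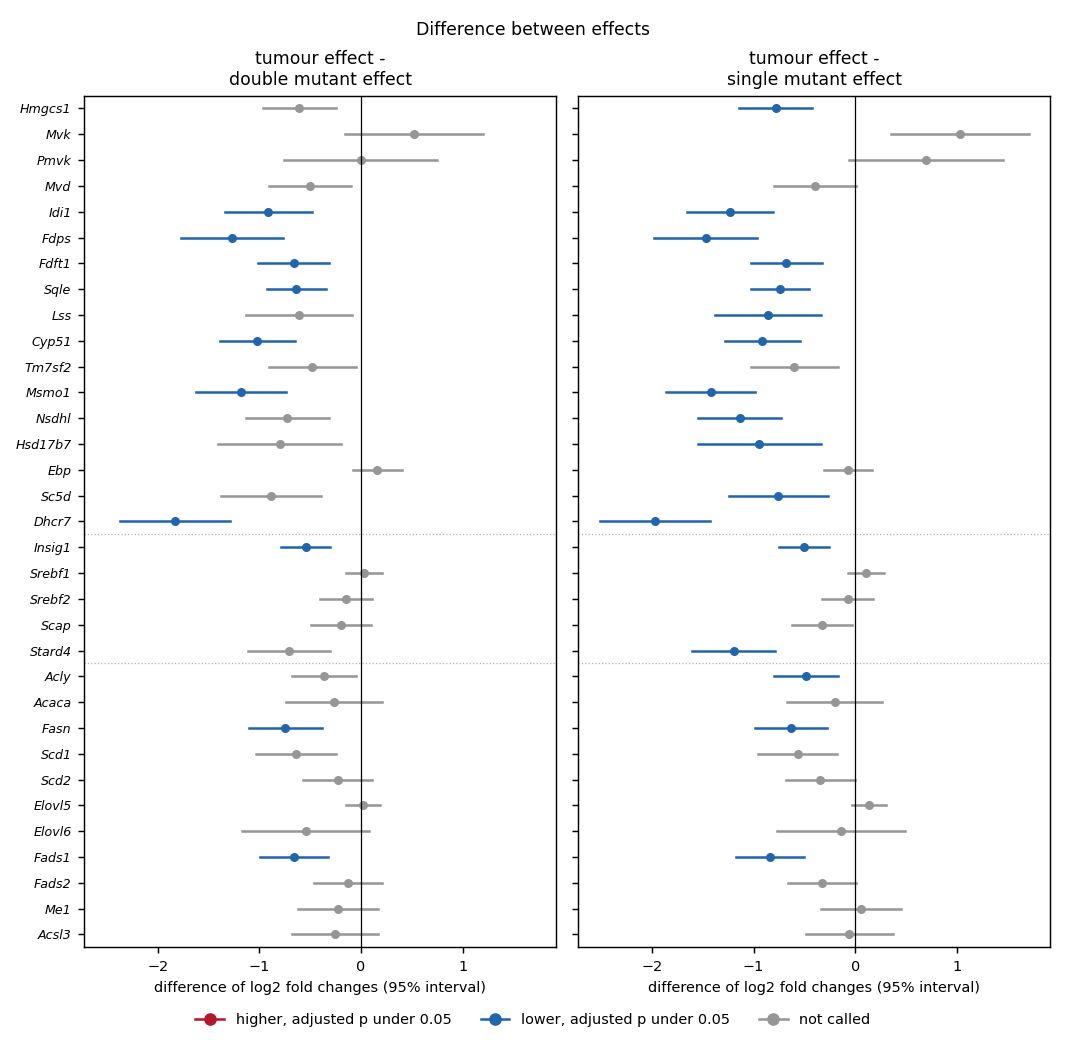
For each of the 33 members, the tumour effect at 12 months minus the double or single mutant effect at 7 months, on the log2 scale with 95% intervals. Coloured genes passed an adjusted p of 0.05: 10 were lower against the double mutant and 17 against the single mutant. Age, tissue sampled and any array batch differ together between the 2 sets, and in the single mutant panel genotype differs too.

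Wild type lung itself differed between the ages, and these levels enter the contrast. All 3 wild type arrays at 12 months lay above all 3 at 7 months for 23 of the 33 members (30.5% of all genes) and below them for 2 (18.2% of all genes). The median log2 difference, 12 minus 7 months, was 0.41 over the members and 0.65 over the 17 sterol genes, against 0.09 over all genes. Wild type at 12 months was the highest of the 5 groups for 13 members, 10 of them sterol genes, and wild type at 7 months the lowest for 23, 14 of them sterol genes. This order of groups was not counted over all genes. Array medians over all groups were 95.6 to 99.5 at 12 months and 90.9 to 94.3 at 7 months, with no further normalization. Sqle averaged 1193 ± 55.9 in tumours and 1139 ± 20.9 in 12-month wild type lung, and 1141 ± 39.9 in the double mutant, 1228 ± 66.1 in the single mutant and 700.0 ± 109 in 7-month wild type lung (SD, n = 3 each). The arrays of each pair among the other 4 groups overlapped, and 7-month wild type lay below them all. Dhcr7 averaged 195 ± 35.5 in tumours and 552 ± 107 in 12-month wild type lung, and 224 ± 16.9 in the double mutant, 249 ± 6.01 in the single mutant and 169 ± 44.5 in 7-month wild type lung. For Dhcr7 it is the 12-month wild type lung that stands above the rest. Of the RNA controls only the Gapdh ratio separated the wild type sets, and some cell type markers differed too. The ratio of 3' to 5' Gapdh control probe sets was 1.35 to 1.38 at 12 months, against 1.63 to 2.45 at 7 months. The same ratio for actin overlapped, at 1.64 to 1.7 and 1.65 to 1.87. Averages for 18S ribosomal RNA overlapped as well, at 5492 to 6933 and 6866 to 7032. Macrophage markers summed to 49206 to 58308 at 12 months, against 24939 to 37926 at 7 months, and endothelial markers to 18921 to 21319, against 29009 to 29768 at 7 months. Their part in the age difference was not tested. Age, sex and any array batch differ together between the wild type sets and cannot be told apart.

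**Figure D4:**
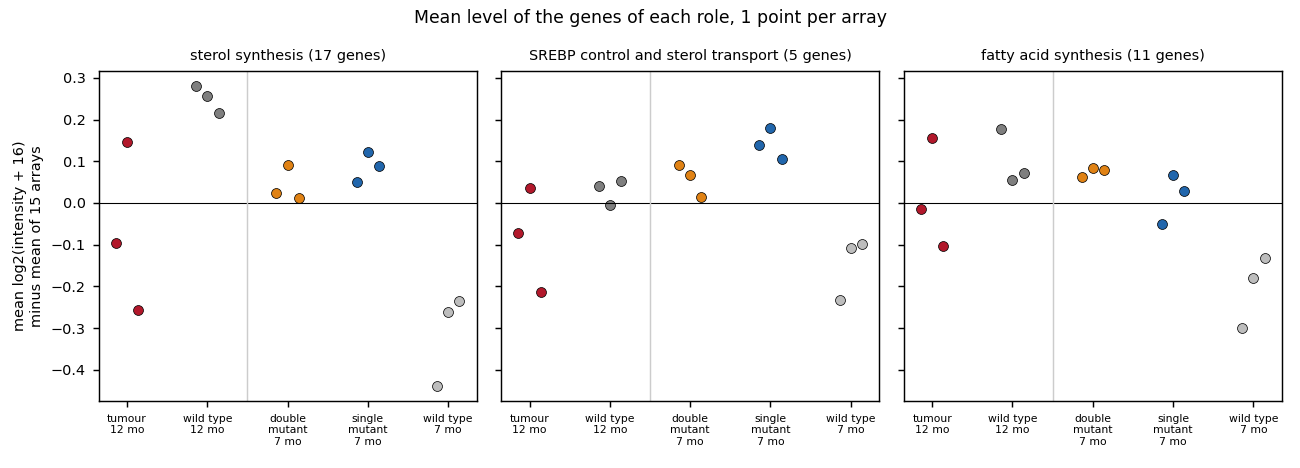
Mean log2(intensity + 16) of the genes of each role on each array, minus its mean over the 15 arrays, for the 17 sterol, 5 control and 11 fatty acid genes. Sterol genes lay at -0.10, 0.15 and -0.26 in the tumours and 0.28, 0.26 and 0.22 in 12-month wild type lung. In each role every 7-month mutant array lay above every 7-month wild type array.

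Neighbouring pathways were read from lists of genes that are not members. Their counts stand beside the shares of all genes. Of all genes, 9.23% rose and 6.02% fell in the tumours. In the double mutant 6.42% rose and 1.39% fell, and in the single mutant 9.79% rose and 5.4% fell. Of 12 measured genes of other sterol steps and SREBP targets, 0 were called in the double mutant. In the single mutant Erg28, a scaffold of sterol demethylation, rose (log2 fold change 0.45 ± 0.06 SE, adjusted p = 0.00264) and Ggps1, which makes geranylgeranyl diphosphate, fell (log2 fold change -0.94 ± 0.09 SE, adjusted p = 0.000307). Ggps1 averaged 559 in the double mutant and 302 in the single mutant, against 593 in wild type lung, and its double against single mutant difference passed (0.86 ± 0.09 SE, adjusted p = 0.00367). In the tumours Tmem97, a sterol-regulated membrane protein, Cers4, a ceramide synthase, and Mbtps2, a protease that releases SREBP, fell (log2 fold change -0.72, -0.69 and -0.35), while Insig2 rose (0.40, adjusted p = 0.025).

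Of 23 other genes of fatty acid and lipid assembly, 6 rose and 0 fell in the double mutant, where 6.42% of all genes rose and 1.39% fell. In the single mutant 7 rose and 3 fell, where 9.79% of all genes rose and 5.4% fell. Pgd, which makes NADPH, rose by 0.42 and Elovl1, an elongase, by 0.56 in the double mutant. Aacs, which activates acetoacetate for lipid synthesis, rose by 0.48 in the double mutant and 0.60 in the single mutant, and Acsl4 by 0.28 and 0.39, all on the log2 scale. Lpin1 and Elovl7 fell in the single mutant (-0.55 and -0.53). In the tumours 1 of these genes, Scd3, rose (log2 fold change 0.48, adjusted p = 0.0182), where 9.23% of all genes rose.

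Of 17 genes of sterol efflux, uptake and the LXR response, many of which act when sterol is in excess, 0 rose and 7 fell in the tumours. Of all genes 9.23% rose and 6.02% fell there. At 7 months 6.42% rose and 1.39% fell in the double mutant, and 9.79% rose and 5.4% fell in the single mutant. Lipa, the lysosomal lipase, averaged 1121 in tumours and 3083 in wild type lung (2.73-fold lower, log2 fold change -1.45 ± 0.18 SE, adjusted p = 0.00884). Ch25h, which makes an oxysterol, fell with it (652 in tumours and 1904 in wild type lung, adjusted p = 0.0232), as did Cyp27a1 and the exporter Abcg1 (log2 fold change -0.72 and -0.65). As with Dhcr7, 12-month wild type lung had the highest mean of the 5 groups for Lipa and Ch25h: Lipa averaged 1292 in the double mutant, 1383 in the single mutant and 1462 in 7-month wild type lung, and Ch25h 699 in the double mutant, 485 in the single mutant and 575 in 7-month wild type lung. At 7 months 0 of the 17 were called in the double mutant, and Abca1, a cholesterol exporter, fell in the single mutant (log2 fold change -0.43 ± 0.06 SE, adjusted p = 0.00252). Of 19 fatty acid oxidation genes, 0 were called in the tumours, Etfa rose in both mutants (0.37 in the double and 0.39 in the single mutant) and Acadl fell in the single mutant (-0.33).

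Cell type markers moved in the same comparisons, and their part in the member results was not tested. In these bulk samples fewer cells of a type and less RNA per cell cannot be told apart. Of all genes 9.23% were called higher in the tumours, 6.42% in the double mutant and 9.79% in the single mutant. Ciliated cell markers rose in every comparison with wild type: 12 of 12 in the tumours, 11 in the double mutant and 12 in the single mutant, Mlf1 by 1.48 and 1.60 in the double and single mutants. Their summed intensity ran from 18723 to 27319 in tumours and from 8926 to 11333 in 12-month wild type lung, and from 11748 to 14309 in the double mutant and 13100 to 14342 in the single mutant, against 6783 to 7056 in 7-month wild type lung. Club cell markers (6, 9 and 7 of 12 higher in tumours, double and single mutant) and goblet cell markers (8, 5 and 4 of 9 higher) moved with them, and Agr2 of the goblet cells rose by 4.44 in tumours, 3.95 in the double mutant and 2.04 in the single mutant. Club cell sums ran from 110201 to 112572 in tumours and from 62488 to 79849 in 12-month wild type lung, and from 103360 to 110251 in the double mutant and 86494 to 88565 in the single mutant, against 60247 to 69106 in 7-month wild type lung. Goblet cell sums ran from 12213 to 15881 in tumours and from 1625 to 4084 in 12-month wild type lung, and from 4848 to 6629 in the double mutant and 2402 to 2829 in the single mutant, against 726 to 1619 in 7-month wild type lung.

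For the counts that follow, 9.23% of all genes rose and 6.02% fell in the tumours. In the double mutant 6.42% rose and 1.39% fell, and in the single mutant 9.79% rose and 5.4% fell. Alveolar type 2 markers, from the cells that make surfactant, were called higher for 3 of 14 in the double mutant and for 6 of 14 in the single mutant, where 1 fell. S100g rose by 0.42 and 0.73, and Lpcat1, which builds surfactant lipid, by 0.39 and 0.53, in the double and single mutant on the log2 scale. The median over the 14 was smaller, at 0.16 and 0.11. Surfactant protein genes changed less or fell. Double mutant, single mutant and wild type means were 9187, 7482 and 8800 for Sftpb and 12400, 11700 and 12370 for Sftpc. They were 12910, 12890 and 12410 for Sftpa1 and 8659, 8505 and 8270 for Sftpd. The sum of the 14 markers ran from 90869 to 94584 in the double mutant and 88461 to 93898 in the single mutant, against 82435 to 87247 in 7-month wild type lung. In the tumours 0 of the 14 were called and the sum ran from 58964 to 100295 in tumours, against 91438 to 97125 in wild type lung. Still, 12 of the 14 estimates were negative (median log2 fold change -0.46). For the tumour effect minus the double mutant effect all 14 were negative (median -0.53, 0 called), beside -0.55 for the members. Minus the single mutant effect 13 were negative (median -0.60, 2 called lower, against 5.49% of all genes), beside -0.56. Macrophage, endothelial and ciliated medians minus the double mutant effect were -1.19, -0.78 and 0.29. Alveolar type 1 markers had -0.66, and -0.75 minus the single mutant effect. Sterol efflux, uptake and LXR genes had -0.53 in both. A median near that of the members was therefore not particular to type 2 markers. The part of these markers and genes was not tested. Macrophage markers fell in tumours for 8 of 14, with Pparg at -1.71 and Cd68 at -1.85, and their sum ran from 23833 to 35009 in tumours, against 49206 to 58308 in wild type lung. At 7 months 1 macrophage marker fell in the double mutant and 2 in the single mutant, with sums of 28361 to 32807 in the double mutant and 24917 to 28004 in the single mutant, against 24939 to 37926 in wild type lung. Endothelial markers fell for 6 of 10 in tumours, where they summed to 8508 to 13286, against 18921 to 21319 in wild type lung. They fell for 3 in each mutant, with sums of 20437 to 25307 in the double mutant and 24033 to 25087 in the single mutant, against 29009 to 29768 in wild type lung. Alveolar type 1 markers fell for 2 of 10 in tumours, 2 in the double mutant and 0 in the single mutant. Of 8 adipocyte markers, Plin4 rose in tumours (log2 fold change 0.86) and fell in the single mutant (-0.81), where Lipe also fell and Acvr1c rose, and the sum ran from 1952 to 3166 in tumours, against 1560 to 1644 in wild type lung. T and NK cell markers gave 0 calls of 7 in each of the comparisons with wild type, neutrophil markers 1 lower of 7 in the single mutant, and smooth muscle markers 1 lower of 7 in the double mutant and 2 lower in the single mutant.

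**Figure D5:**
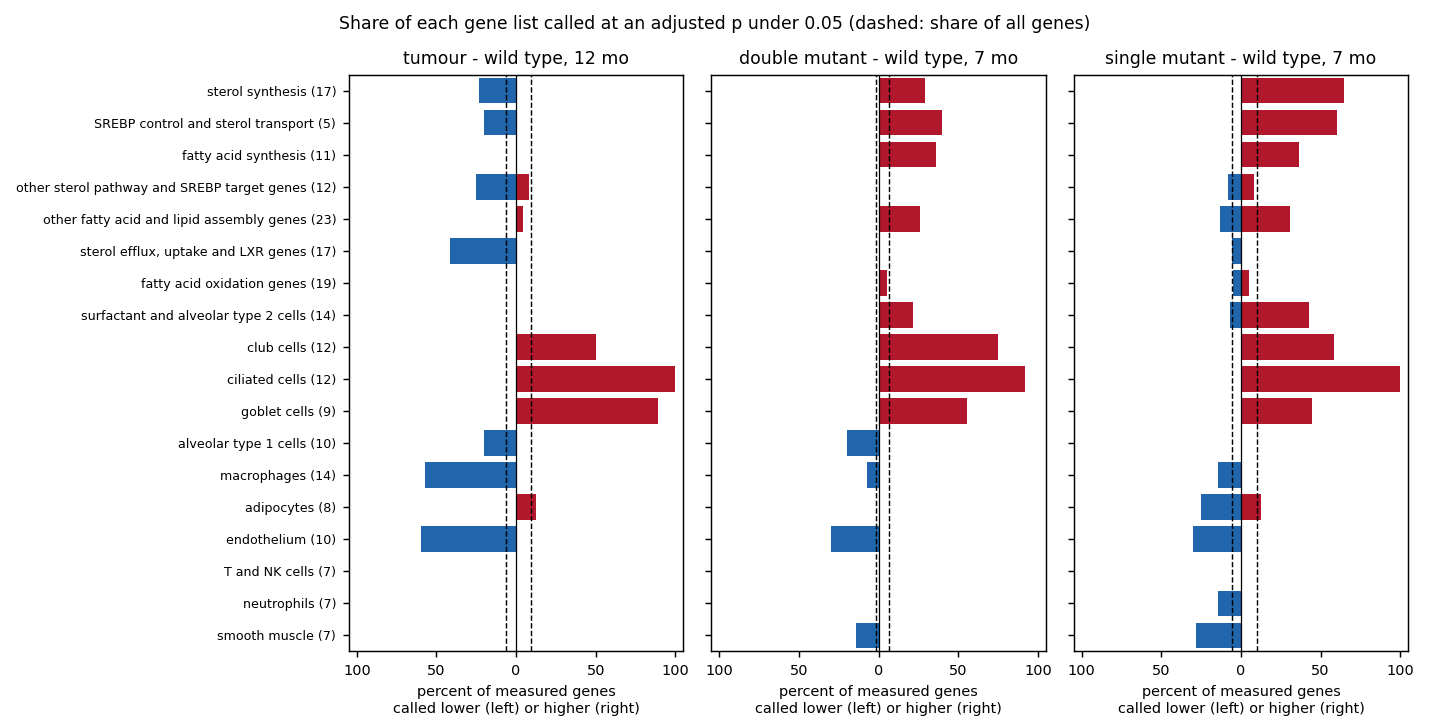
Percent of the measured genes of each list called higher (right) or lower (left) at an adjusted p under 0.05, for tumours, double mutant and single mutant against wild type of the same age, with the number of measured genes in brackets and the share of all genes as dashed lines. Sterol synthesis had 5 of 17 genes higher in the double mutant and 11 of 17 in the single mutant, and 4 of 17 lower in tumours.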

How the data were processed

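RNA from 15 samples was isolated with TRIzol and an RNeasy kit, and biotinylated cRNA was made with the Affymetrix 3' IVT Express protocol, per the labels' protocols. The deposited files give 1 intensity per probe set and array, for 45101 probe sets, on a linear scale from 0.48 to 17030. How the authors scaled and summarised the probes is not stated in the labels or file headers.

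The platform annotation listed 35890 probe sets, of which 34945 name 1 symbol, 932 several and the rest none. The deposited intensities were used with no further normalization as log2(intensity + 16), and 17.1 to 21.1% of values on an array lay below 16. For each of 18193 genes the brightest probe set was kept. limma 3.58.1 in R 4.3.3 fitted the 12-month groups and the 7-month groups separately and all 15 arrays for differences of effects, with Benjamini-Hochberg adjustment over all genes and a threshold of 0.05. The added 16 makes fold changes of dim genes too small. The number of arrays limits the precision. No 2 arrays held identical values. A simulation with known changes tested the scripts. All members are named, and of other lists up to 4 called genes with the smallest adjusted p in a comparison. Members and lists were chosen with earlier results of these data known. Normalization, pseudocount, probe set choice, gene filter, limma settings, samples in the fit and leaving out each array were varied. The mutated locus other than Smad4 is not reported here. At 7 months same-numbered arrays of different groups did not deviate together (r -0.128 to 0.161 over 9 pairs, 1 of them over 0.1), so the numbers were not taken to pair samples.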

Additional observations from a re-analysis of the deposited data

Results flagged for a closer look

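Differences between 2 groups' effects that passed the test of the difference are given here, on the log2 scale, with limma's Benjamini-Hochberg adjusted p. Between the 7-month mutants, Stard4 was lower in the double mutant than in the single mutant (-0.48, adjusted p = 0.0373). All other values are the tumour effect minus a mutant effect, each against wild type of its own age.

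Minus the double mutant effect, the sterol genes were Idi1 at -0.91 (adjusted p = 0.0274), Fdps at -1.27 (0.0138), Fdft1 at -0.66 (0.0461), Sqle at -0.64 (0.0241), Cyp51 at -1.02 (0.00869), Msmo1 at -1.18 (0.0101) and Dhcr7 at -1.83 (0.00381). The control gene Insig1 stood at -0.54 (adjusted p = 0.0228), and the fatty acid genes Fasn and Fads1 at -0.74 (0.0314) and -0.66 (0.0385).

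Minus the single mutant effect, the early sterol genes were Hmgcs1 at -0.78 (adjusted p = 0.0111), Idi1 at -1.23 (0.00247), Fdps at -1.47 (0.00237), Fdft1 at -0.68 (0.019) and Sqle at -0.74 (0.005). The later sterol genes were Lss at -0.86 (adjusted p = 0.0384), Cyp51 at -0.91 (0.00603), Msmo1 at -1.42 (0.00132), Nsdhl at -1.13 (0.00317), Hsd17b7 at -0.94 (0.0464), Sc5d at -0.76 (0.0479) and Dhcr7 at -1.97 (0.000786). Insig1 stood at -0.50 (adjusted p = 0.0142) and Stard4 at -1.20 (0.00221), and the fatty acid genes Acly, Fasn and Fads1 at -0.48 (0.0495), -0.63 (0.029) and -0.83 (0.0058). Both sets share the tumour and all wild type arrays. Age, tissue sampled and any batch differ together between the 2 ages and cannot be told apart. For the single mutant effect genotype differs as well, since the tumours were of the double mutant genotype.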

How the results depend on the processing

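No member reversed its direction while called under any alternative. Under every alternative, 1 of 5 calls was kept in the tumours, 4 of 11 in the double mutant, 10 of 18 in the single mutant, 0 of 1 between the mutants, and 4 of 10 and 12 of 17 in the tumour effect minus the double and the single mutant effect. The cause of the other changes was not tested. In the tumours, members called higher numbered 0, against 1 with quantile normalization, averaged probe sets, array weights or only the wild type array without Xist, 2 without the dimmer genes, with a pseudocount of 64 or with limma's trend and robust options, and 4 in a common fit of 15 arrays. Members called lower numbered 5, against 2 with a pseudocount of 1, 3 with averaged probe sets, 1 with the wild type array without Xist and 11 in the common fit. That lone array was assumed to vary like the other groups. In the double mutant the 11 called higher became 17 without the dimmer genes and 6 in a fit of the 2 groups alone. In the single mutant 1 member was called lower, against 0, with median centring, without the dimmer genes, with a pseudocount of 64, with trend and robust options and in the common fit. Between the mutants 1 member, against 0, was higher without the dimmer genes, with a pseudocount of 64, trend and robust options, array weights or the 2 groups alone, and members lower, 1 in all, numbered 3 without the dimmer genes, 2 with a pseudocount of 64, trend and robust options or array weights, and 0 with a pseudocount of 1, the common fit or the 2 groups alone. For the tumour effect minus the double mutant effect, array weights gave 16 lower against 10. Minus the single mutant effect, 1 was higher, against 0, with averaged probe sets or trend and robust options.

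Leaving out 1 array gave 1 to 10 members lower and 0 to 1 higher in the tumours, 7 to 13 higher in the double mutant, and 10 to 18 higher and 0 to 2 lower in the single mutant. Between the mutants it gave 0 to 1 in each direction. The tumour effect was lower than the double mutant effect for 4 to 18 members, and than the single mutant effect for 12 to 20, with 0 to 1 higher. Over all genes, the same fits called 220 to 1426 lower and 622 to 1900 higher in the tumours. They called 792 to 1037 higher in the double mutant and 1192 to 1827 higher in the single mutant. The tumour effect was lower than the double mutant effect for 108 to 973 genes, and than the single mutant effect for 564 to 1655. The replicate number as a block gave 12 members higher in the double mutant and 17 in the single mutant, and 1 lower between the mutants, where Nsdhl passed (log2 -0.41, adjusted p = 0.0488) and Stard4 did not (adjusted p = 0.0643).

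Over all genes, counts across the other settings ran from 1288 to 2735 higher in the tumours (1679 in the reported fit) and 741 to 2191 lower (1095), from 730 to 1369 higher in the double mutant (1168) and 37 to 1025 lower (253), and from 747 to 1759 lower in the single mutant (983). Between the mutants they ran from 96 to 468 higher (167) and 101 to 419 lower (153), and for the tumour effect minus the double mutant effect from 164 to 425 lower (257). Median centring moved the median of all genes by under 0.1 on the log2 scale.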

Other observations

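The 33 members are named by 76 probe sets, and 24 genes have several. The other 43 probe sets, in a limma fit over all probe sets, gave 7 higher and 0 lower in the double mutant, 13 higher and 0 lower in the single mutant, and 1 higher and 3 lower in the tumours. With 1 probe set per gene, 6.42% of all genes rose and 1.39% fell in the double mutant. The shares were 9.79% and 5.4% in the single mutant and 9.23% and 6.02% in the tumours. Shares over all probe sets were not counted for the fit over all probe sets, so its counts only describe these probe sets. In the same fit 4 calls of the members' own probe sets were lost: Fdps in the tumours (adjusted p = 0.0551) and in the double mutant (0.0515), Mvd in the tumours (0.0553) and Scap in the single mutant (0.054). For 0 genes were 2 probe sets called in opposite directions. Another Hmgcs1 probe set was called in the double mutant, where the brightest one was not (log2 fold change 0.36, adjusted p = 0.0475), and so was another Lss probe set (0.35, adjusted p = 0.0469). A dimmer Fads2 probe set rose in the single mutant (0.37, adjusted p = 0.0401). Another Acly probe set also rose in the single mutant (0.37, adjusted p = 0.0112), where the brightest one was called too. In the tumours a dimmer Mvd probe set fell by more than the brightest one (-0.85, adjusted p = 0.0324), both other Stard4 probe sets fell (-0.55 and -0.96, adjusted p = 0.0287 and 0.0306), and a dimmer Mvk probe set rose (0.98, adjusted p = 0.0349).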
